A study of Mus musculus with 20 samples.

Results

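The genes described here encode the xenobiotic cytochromes P450 of families 1 to 3. They were taken as every gene whose platform symbol is Cyp followed by 1, 2 or 3, a subfamily letter and a number. This gave 56 genes of the 19505 that carry a symbol on the array, and each of the 56 was read by 1 probe set. Symbols ending in a further letter, such as Cyp3a41a, fell outside the rule, and no probe set carries the symbol Cyp2c29 here. Cyp2c23 has the RefSeq synonym Cyp2c44. These enzymes are heme proteins of the endoplasmic reticulum that insert oxygen into drugs, pollutants, steroids, bile acids and fatty acids, with electrons passed on by cytochrome P450 reductase or cytochrome b5. Foreign compounds induce many of them through nuclear and ligand-activated receptors: the aryl hydrocarbon receptor Ahr for family 1, the constitutive androstane receptor CAR (Nr1i3) for Cyp2b, and the pregnane X receptor PXR (Nr1i2) for Cyp3a. In mouse liver several are also set by growth hormone and differ between males and females, and several are made mainly by the hepatocytes around the central vein.

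Liver RNA of 20 mice was measured with 1 array per liver, and 5 mice, labelled as biological replicates, formed each of 4 groups. Fed WT and fed Mcl1(L-/-) mice had food at all times, and fasted WT and fasted Mcl1(L-/-) mice were kept singly on wire floors with no food for 48 h, all with water. Mcl1(L-/-), referred to as Mcl1KO, are mice with floxed Mcl1, an anti-apoptotic gene of the BCL2 family, in which a virus (AAV) drove Cre recombinase from the liver-specific LP1 promoter. The treatment of the WT mice is not given in the labels, so the effects of virus, Cre and Mcl1 loss cannot be told apart, and neither can those of fasting and of single housing on wire floors. Age and sex of the mice are not given in the labels.

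As a check of the labels, the Mcl1 signal averaged 7.43 ± 0.15 in fed and 7.28 ± 0.09 in fasted WT livers, against 6.09 ± 0.16 in fed and 6.14 ± 0.25 in fasted Mcl1KO livers (log2 signal, mean ± SD, n = 5). The 15 hepatocyte markers examined were all above the median probe set (a mean signal of 3.41), and 0 of 9 lymphocyte markers were. Of the hepatocyte markers 2 were higher after fasting in WT, 3 were higher and 2 lower after fasting in Mcl1KO livers, and 1 was lower in fasted Mcl1KO than in fasted WT livers. The 12 Kupffer cell markers had a mean signal of 5.22 to 5.70 in fed and 4.59 to 4.95 in fasted WT livers, and of 5.36 to 5.68 in fed and 5.03 to 5.73 in fasted Mcl1KO livers. Of these 12 markers, 4 were lower after fasting in WT, 1 was higher and 2 were lower after fasting in Mcl1KO, and 5 were higher in fasted Mcl1KO than in fasted WT livers. Of the other marker lists, 1 of 10 for sinusoidal endothelium was higher and 3 were lower after fasting in WT, and 2 were higher in Mcl1KO livers. For stellate cells 1 of 9 was lower in WT, and 2 were higher and 2 lower in Mcl1KO livers. For cholangiocytes 1 of 8 was higher and 1 lower in WT, and 1 was higher and 2 were lower in Mcl1KO livers. Of monocyte and neutrophil markers 0 of 10 were called in WT and 1 was higher in Mcl1KO livers, and of intestinal markers 0 of 7 were called in WT and 2 were higher in Mcl1KO livers. The part of these shifts in the results below was not tested. Between fasted genotypes these lists gave 1 stellate and 1 monocyte or neutrophil marker, both higher in Mcl1KO. In whole liver, fewer cells of a type and less RNA per cell cannot be told apart. Of the 56 cytochrome genes, 39 had a mean signal at or above the median probe set and 17 lay below it, where a signal can be background.

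The largest falls with fasting among these cytochromes, in both genotypes, were those of Cyp1a2, an enzyme of caffeine and aromatic amine metabolism, and of Cyp2c70, Cyp2c55 and Cyp2c23. The neighbouring genes Cyp2c38 and Cyp2c39 rose. In WT livers 14 of the 56 genes passed the test (25.0%, against 6.79% of all probe sets), 5 of them higher and 9 lower in fasted livers. In Mcl1KO livers 24 passed (42.9%, against 14.4% of all probe sets), 6 higher and 18 lower. A gene passed, or was called, at an adjusted p under 0.05 by limma with Benjamini-Hochberg adjustment over 22206 probe sets. The shares of 6.79% in WT and 14.4% in Mcl1KO livers also stand beside the fasting counts of subfamilies and lists below. They include dim probe sets, which were called less often. When only probe sets at or above the median were tested, 15 of 39 cytochrome genes were called in WT, against 1659 of 11103 probe sets. In Mcl1KO livers 20 of the 39 were called, against 3331 of the 11103. Changes of at least 2-fold were called for 7 genes in WT and 9 in Mcl1KO livers, against 1.51% and 3.01% of all probe sets. The median log2 difference over the 56 genes was -0.04 in WT and -0.12 in Mcl1KO livers, against 0.01 and -0.00 over all probe sets.

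The fasting comparisons in WT and in Mcl1KO share no arrays. Calls were shared for 12 genes, in the same direction for all 12: Cyp2c38, Cyp2c39 and Cyp3a13 higher, and Cyp1a2, Cyp2c23, Cyp2c55, Cyp2c67, Cyp2c69, Cyp2c70, Cyp2g1, Cyp2j5 and Cyp2r1 lower. They made up 85.7% of the genes called in WT and 50% of those called in Mcl1KO livers. Cyp2d22 and Cyp3a25 were called, higher, in WT livers alone. Another 12 were called in Mcl1KO livers alone: Cyp2b10, Cyp2b19 and Cyp3a59 higher, and Cyp2a4, Cyp2a5, Cyp2c50, Cyp2c65, Cyp2c66, Cyp2d40, Cyp2f2, Cyp2j13 and Cyp2u1 lower. A call in 1 genotype alone does not show that the genotypes differ, and that difference is tested further on. The remaining 30 genes were called in neither. Groups of 5 fed and 5 fasted livers did not overlap for 18 genes in WT (7.36% of all probe sets) and for 18 genes in Mcl1KO livers (10.2% of all probe sets).

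**Figure D1:**
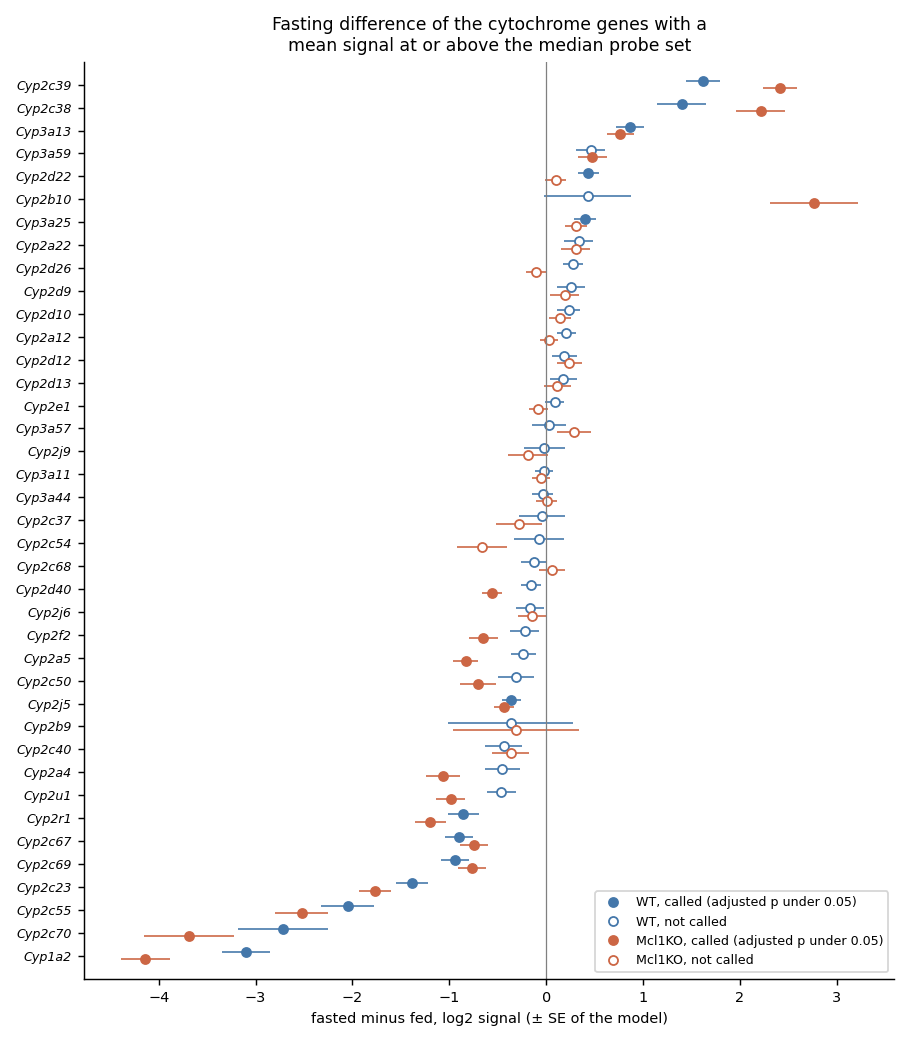
Fasted minus fed log2 signal, with the standard error of the model, for the 39 cytochrome genes at or above the median probe set, in WT (blue) and Mcl1KO livers (orange), with filled points for called differences. Cyp1a2 lies lowest at -3.10 and -4.14, Cyp2c39 is the highest in WT at 1.62, and Cyp2b10 has its filled point, at 2.76, in Mcl1KO livers.

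In family 1, Cyp1a2 gave the largest fasting difference of the 56 genes in both genotypes. Its log2 signals were 11.01, 11.00, 10.83, 10.95 and 10.89 in fed WT livers and 8.67, 7.69, 7.45, 7.65 and 7.73 in fasted WT livers. Fed Mcl1KO livers gave 11.14, 10.88, 11.21, 11.08 and 11.17, and fasted Mcl1KO livers 7.64, 5.74, 7.44, 6.73 and 7.24. The 10 fasted livers, at 5.74 to 8.67, all lay below the 10 fed livers, at 10.83 to 11.21, with fasted WT replicate 1 the highest of the fasted livers and fasted Mcl1KO replicate 2 the lowest. Cyp1a2 fell by 3.10 on the log2 scale in WT (SE 0.25, 8.58-fold, adjusted p = 1.73e-08) and by 4.14 in Mcl1KO livers (SE 0.25, 17.6-fold, adjusted p = 1.41e-10).

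The other family 1 genes did not pass. Cyp1a1, the classic inducible target of Ahr, gave 2.62, 2.24, 2.35, 2.24 and 3.05 in fed and 2.31, 2.61, 2.44, 2.24 and 2.25 in fasted WT livers, and 2.75, 2.88, 2.67, 2.74 and 2.68 in fed and 2.61, 2.74, 2.37, 2.18 and 2.13 in fasted Mcl1KO livers. Cyp1b1, an estradiol hydroxylase made mostly outside the liver, gave 2.42, 2.34, 2.19, 2.53 and 2.05 in fed and 2.64, 2.16, 2.13, 2.33 and 2.45 in fasted WT livers, and 1.99, 2.45, 2.43, 2.27 and 2.10 in fed and 2.20, 2.53, 2.51, 2.32 and 2.36 in fasted Mcl1KO livers. Both probe sets lay below the median probe set in every group and their groups overlapped. Their fasting differences were -0.13 (adjusted p = 0.74) and -0.34 (adjusted p = 0.135) for Cyp1a1 in WT and Mcl1KO livers, and 0.04 (adjusted p = 0.936) and 0.14 (adjusted p = 0.584) for Cyp1b1. On dim probe sets a difference can be understated. Of the 4 genes listed as Ahr-responsive in these families, with Cyp2s1, Cyp1a2 alone was called, and it alone lay at or above the median probe set. Outside the families, 0 of 6 measured Ahr targets were called in WT, and in Mcl1KO livers 1 was, the quinone reductase Nqo1, higher by 0.70 (adjusted p = 0.0259). Of these 6, 3 lay at or above the median probe set. Over all probe sets 6.79% were called in WT and 14.4% in Mcl1KO livers, so few calls among 6 genes say little. In WT livers the Ahr transcript itself differed by -0.14 (adjusted p = 0.801), and in Mcl1KO livers it fell by 0.78 (adjusted p = 0.0051).

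The 150 bases before the RefSeq start of Cyp1a2, at chr9:57683656-57683805 on the minus strand of GRCm38.p6, are shown because this gene fell the most. Capitals mark a TATA box (TATAAA), which was found on either strand of the 250 bases before 12.4% of 32851 RefSeq starts and before 21 of the 48 cytochrome genes with a window (43.8%). The motifs searched here and below were chosen after the values were seen, both strands were read, and a match describes letters, not a bound site.
Cyp1a2: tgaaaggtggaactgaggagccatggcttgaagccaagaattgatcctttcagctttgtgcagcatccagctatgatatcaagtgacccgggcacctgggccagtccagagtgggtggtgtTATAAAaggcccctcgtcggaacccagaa
The core letters bound by Ahr with its partner Arnt, GCGTG, occur on neither strand of the 250 bases before its start. They do occur in that window of Cyp1a1, whose upstream 250 bases were 49.2% identical to those of Cyp1a2. No match says only that these letters are not in this window.

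The Cyp2c subfamily, of 14 measured genes, held 7 of the 14 cytochromes called in WT (2 higher, 5 lower) and 10 of the 24 called in Mcl1KO livers (2 higher, 8 lower). Its genes act on bile acids, retinoids and arachidonic acid as well as drugs. Fasting differences ran from -2.72 for Cyp2c70 to 1.62 for Cyp2c39 in WT, and from -3.69 to 2.42 for the same genes in Mcl1KO livers.

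Cyp2c70, the mouse enzyme that turns chenodeoxycholic acid into muricholic acids, gave 9.42, 9.37, 9.04, 9.03 and 9.46 in fed and 6.98, 6.34, 5.54, 8.62 and 5.26 in fasted WT livers. It gave 9.75, 9.59, 9.24, 9.42 and 9.06 in fed and 6.59, 4.07, 6.62, 5.94 and 5.41 in fasted Mcl1KO livers. Fed and fasted livers did not overlap in either genotype, although fasted WT replicate 4, at 8.62, was the nearest to the fed livers. The fasted WT livers spread from 5.26 to 8.62 and the fasted Mcl1KO livers from 4.07 to 6.62, where the fed livers of both genotypes stayed between 9.03 and 9.75. Cyp2c70 fell by 2.72 in WT (SE 0.47, 6.58-fold, adjusted p = 0.000439) and by 3.69 in Mcl1KO livers (SE 0.47, 12.9-fold, adjusted p = 4.47e-06).

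Cyp2c55, an arachidonic acid hydroxylase inducible through CAR and PXR, gave 5.20, 4.75, 4.999, 5.31 and 5.54 in fed and 2.97, 3.41, 2.98, 3.14 and 3.06 in fasted WT livers. In Mcl1KO livers it gave 4.63, 6.82, 5.24, 5.04 and 4.57 fed and 2.82, 2.51, 2.90, 2.85 and 2.59 fasted. Every fasted liver, at 2.51 to 3.41, was below every fed liver and near or under the median probe set, and fed Mcl1KO replicate 2 was the highest of all. Cyp2c55 fell by 2.05 in WT (SE 0.27, 4.13-fold, adjusted p = 2.19e-05) and by 2.52 in Mcl1KO livers (SE 0.27, 5.76-fold, adjusted p = 5.21e-07).

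Cyp2c23, an arachidonic acid epoxygenase of kidney and liver, gave 10.63, 10.78, 10.55, 10.52 and 10.63 in fed and 9.64, 9.24, 8.82, 9.36 and 9.12 in fasted WT livers, then 10.27, 10.57, 10.61, 10.41 and 10.40 in fed and 8.72, 8.12, 9.25, 8.95 and 8.38 in fasted Mcl1KO livers. The fed livers of both genotypes lay between 10.27 and 10.78, and all fasted livers were lower, at 8.12 to 9.64. It fell by 1.39 (SE 0.17, adjusted p = 5.52e-06) in WT and by 1.77 (SE 0.17, adjusted p = 6.7e-08) in Mcl1KO livers.

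Cyp2c67 and Cyp2c69 fell by less than 2-fold in both genotypes. Cyp2c67 gave 9.02, 9.31, 9.32, 9.43 and 9.39 in fed and 8.63, 8.15, 8.35, 8.30 and 8.54 in fasted WT livers, and 9.29, 9.14, 9.22, 9.22 and 9.27 in fed and 8.35, 8.67, 9.06, 8.07 and 8.27 in fasted Mcl1KO livers. Cyp2c69, listed among genes with higher expression in females, gave 6.01, 6.25, 6.26, 6.39 and 6.23 in fed and 5.55, 5.53, 5.17, 4.88 and 5.28 in fasted WT livers, and 6.16, 6.16, 5.88, 5.94 and 5.93 in fed and 5.36, 5.27, 5.72, 4.91 and 4.97 in fasted Mcl1KO livers. Fed and fasted livers of a genotype did not overlap for either gene. Cyp2c67 fell by 0.90 in WT (SE 0.14, adjusted p = 0.000182) and by 0.75 in Mcl1KO livers (SE 0.14, adjusted p = 0.000571). Cyp2c69 fell by 0.94 in WT (SE 0.14, adjusted p = 0.000121) and by 0.77 in Mcl1KO livers (SE 0.14, adjusted p = 0.000475). The relatives between them on the chromosome were not called: Cyp2c68 differed by -0.13 (95% interval -0.40 to 0.15) in WT and Cyp2c40 by -0.44 (adjusted p = 0.218).

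Cyp2c38 and Cyp2c39, which make epoxides from arachidonic acid and of which Cyp2c39 also oxidises retinoic acid, rose in both genotypes. Cyp2c39 gave 4.40, 4.52, 4.25, 4.18 and 5.02 in fed and 6.01, 6.59, 6.13, 5.54 and 6.21 in fasted WT livers, and 4.15, 4.20, 4.03, 4.39 and 4.10 in fed and 6.97, 6.26, 6.68, 6.29 and 6.75 in fasted Mcl1KO livers. Cyp2c38 gave 6.42, 7.40, 7.87, 7.59 and 7.73 in fed and 8.83, 9.12, 8.79, 8.48 and 8.78 in fasted WT livers, and 5.49, 6.86, 6.82, 6.67 and 6.54 in fed and 8.86, 8.17, 9.21, 8.54 and 8.67 in fasted Mcl1KO livers. For both genes every fasted liver of a genotype exceeded every fed liver of it, and the lowest Cyp2c38 signals were fed WT replicate 1 and fed Mcl1KO replicate 1. Cyp2c39 rose by 1.62 in WT (SE 0.18, 3.08-fold, adjusted p = 1.1e-06) and by 2.42 in Mcl1KO livers (SE 0.18, 5.34-fold, adjusted p = 1.63e-09). Cyp2c38 rose by 1.40 (SE 0.25, 2.63-fold, adjusted p = 0.000816) and by 2.21 (SE 0.25, 4.64-fold, adjusted p = 1.22e-06).

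In the RefSeq order of the 14 measured Cyp2c genes along chromosome 19, Cyp2c39 and Cyp2c38 stand next to each other and are the measured Cyp2c genes called higher. Cyp2c55, at one end, Cyp2c70 and Cyp2c23, at the other, and Cyp2c67 and Cyp2c69 fell in both genotypes. Cyp2c37, Cyp2c54 and Cyp2c50 are close relatives that lie together. Their differences in WT were -0.04, -0.08 and -0.31, with none called. In Mcl1KO livers Cyp2c50 fell by 0.70 (SE 0.18, adjusted p = 0.0101) with overlapping groups, and Cyp2c54 missed the threshold at -0.66 (SE 0.26, adjusted p = 0.0953). Near-identical Cyp2c genes can share probes, so which of them a probe set reads is uncertain.

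**Figure D2:**
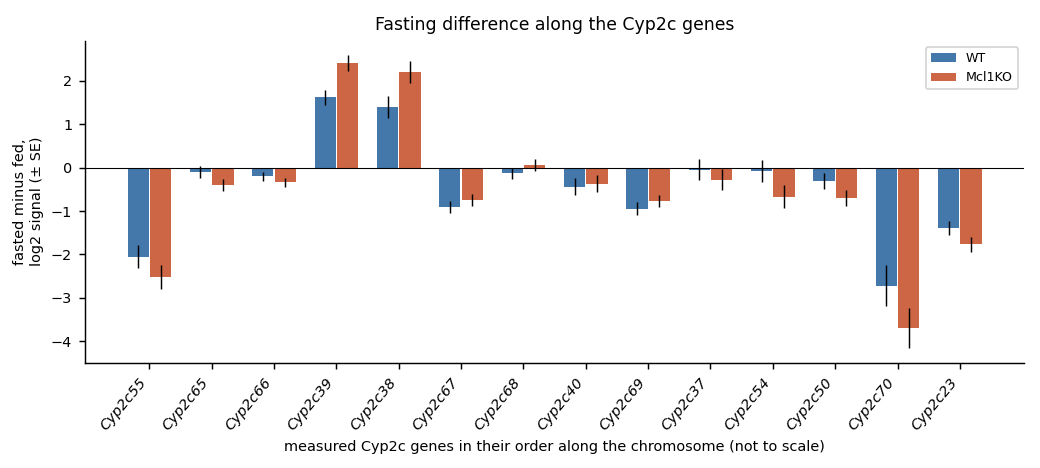
Fasted minus fed log2 signal (bars, with the standard error of the model) of the 14 measured Cyp2c genes in their order along chromosome 19, not to scale, in WT (blue) and Mcl1KO livers (orange). The bars of the neighbours Cyp2c39 and Cyp2c38 point up in both genotypes, at 1.62 and 1.40 in WT livers, and those of Cyp2c55, Cyp2c70 and Cyp2c23 point down by more than 1.

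The upstream sequence of Cyp2c genes that moved in opposite directions is shown for comparison, as the 150 bases before the RefSeq start in GRCm38.p6. They lie at chr19:40187287-40187436 on the minus strand for Cyp2c70, chr19:39006869-39007018 on the plus strand for Cyp2c55, chr19:39463076-39463225 on the minus strand for Cyp2c38 and chr19:39347196-39347345 on the plus strand for Cyp2c39. Capitals mark matches to TATAAA and, in Cyp2c70, to CAAAGTCCA, an element bound by the hepatocyte factor HNF4, on either strand (TTTATA is the reverse strand of TATAAA).
Cyp2c70: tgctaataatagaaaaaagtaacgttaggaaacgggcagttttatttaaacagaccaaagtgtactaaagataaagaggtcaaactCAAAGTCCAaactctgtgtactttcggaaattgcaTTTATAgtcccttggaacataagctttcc
Cyp2c55: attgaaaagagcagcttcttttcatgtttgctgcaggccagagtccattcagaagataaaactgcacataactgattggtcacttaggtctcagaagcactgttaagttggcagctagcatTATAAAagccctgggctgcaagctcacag
Cyp2c38: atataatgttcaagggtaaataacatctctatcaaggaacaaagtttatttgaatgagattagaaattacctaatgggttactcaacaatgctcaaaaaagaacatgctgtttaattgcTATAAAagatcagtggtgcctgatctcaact
Cyp2c39: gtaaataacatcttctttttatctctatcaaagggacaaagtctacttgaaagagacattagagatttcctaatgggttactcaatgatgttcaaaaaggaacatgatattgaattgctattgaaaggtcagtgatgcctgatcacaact
Over the 250 bases before the start, Cyp2c38 and Cyp2c39 were 75.8% identical, against 51.7% for Cyp2c38 with Cyp2c55 and 50.5% with Cyp2c70. RefSeq lists another start for Cyp2c39, which is not shown. The motif CAAAGTCCA was found before 0.384% of the 32851 RefSeq starts of the table and before 8 of the 48 cytochrome genes with a window here (16.7%): Cyp2c40, Cyp2c65, Cyp2c67, Cyp2c68, Cyp2c69, Cyp2c70, Cyp3a11 and Cyp3a16. Several of these windows are copies of one another, with Cyp2c68 and Cyp2c69 91.3% identical, so the genes are not independent. Of the 8, 3 fell with fasting in WT, 4 fell in Mcl1KO livers and 0 rose in either. Of the 40 genes with no match, 4 rose and 4 fell in WT, and 6 rose and 11 fell in Mcl1KO livers. Cyp2c68 and Cyp2c69, nearly alike in this window, differed in whether they were called. Of the 21 genes with TATAAA, 1 rose and 5 fell in WT, and 1 rose and 10 fell in Mcl1KO livers. Of the 27 without it, 3 rose and 2 fell in WT, and 5 rose and 5 fell in Mcl1KO livers. No link between a motif and the calls was tested.

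Turning to genes inducible through CAR and PXR, Cyp2b10, the phenobarbital-inducible marker of CAR, stood apart in fasted Mcl1KO livers. It gave 3.90, 5.55, 5.04, 5.26 and 5.86 in fed and 4.83, 5.71, 6.40, 6.55 and 4.27 in fasted WT livers. In Mcl1KO livers it gave 4.44, 4.41, 5.46, 5.17 and 6.38 fed and 8.63, 8.18, 6.66, 7.74 and 8.48 fasted. The 5 fasted Mcl1KO livers, the lowest of them replicate 3 at 6.66, lay above all 15 livers of the other groups, which overlapped one another. Cyp2b10 rose by 2.76 in Mcl1KO livers (SE 0.45, 6.79-fold, adjusted p = 0.000105), while the difference in WT was 0.43 (SE 0.45, adjusted p = 0.719, 95% interval -0.50 to 1.36). Its relative Cyp2b9 varied over several log2 units within groups, with SDs of 1.55 in fed WT and 1.32 in fed Mcl1KO livers, and was not called. Cyp2b19, a dim gene of skin, had a called rise of 0.39 in Mcl1KO livers (adjusted p = 0.0317) from signals of 2.10, 1.86, 1.90, 2.37 and 2.21 in fed to 2.29, 2.35, 2.50, 2.60 and 2.68 in fasted Mcl1KO livers, with 2.09, 2.44, 2.40, 2.14 and 2.33 in fed and 2.59, 2.04, 2.32, 2.14 and 2.19 in fasted WT livers. These lie below the median probe set and overlap, and the call was lost in 8 alternatives, with adjusted p up to 0.094.

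The 150 bases before the Cyp2b10 start, at chr7:25897508-25897657 on the plus strand, are shown because this gene had the largest called rise in Mcl1KO livers. Capitals mark GCGTG, on both strands, and a match on the minus strand to TTATGNAA, a D-box bound by the clock-controlled factors of the PAR bZIP family.
Cyp2b10: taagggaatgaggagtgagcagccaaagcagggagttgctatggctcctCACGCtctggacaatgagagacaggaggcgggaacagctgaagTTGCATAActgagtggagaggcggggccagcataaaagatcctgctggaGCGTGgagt
TTATGNAA was found before 3.07% of the 32851 starts and before 5 of 48 cytochrome genes (10.4%): Cyp2a4, Cyp2a5, Cyp2b10, Cyp2b19 and Cyp2b23. Of these 5, 2 rose and 2 fell with fasting in Mcl1KO livers and 0 were called in WT. Of the 43 genes without it, 4 rose and 13 fell in Mcl1KO livers, and 4 rose and 7 fell in WT. GCGTG was found before 28.2% of starts and 8 of 48 genes (16.7%). Of these 8, 0 were called in WT, and 1 rose and 1 fell in Mcl1KO livers. Of the 40 without GCGTG, 4 rose and 7 fell in WT, and 5 rose and 14 fell in Mcl1KO livers. TTCNNNGAA, the letters bound by the growth-hormone-activated factor STAT5, was found before 7.02% of starts and 2 of 48 genes (4.17%), with 0 of these 2 called for fasting.

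Among 4 measured Cyp2a genes, 2 fell in Mcl1KO livers and 0 were called in WT. Cyp2a5, the coumarin hydroxylase of mouse liver, gave 10.97, 11.45, 11.11, 11.27 and 11.27 in fed and 10.88, 11.28, 10.90, 10.81 and 11.01 in fasted WT livers, and 11.18, 11.37, 11.49, 11.49 and 11.73 in fed and 10.63, 10.55, 10.30, 10.66 and 10.95 in fasted Mcl1KO livers. Cyp2a4, a steroid hydroxylase higher in females, gave 8.83, 9.65, 9.24, 9.54 and 9.51 in fed and 8.92, 9.35, 8.80, 8.53 and 8.91 in fasted WT livers, and 9.19, 9.64, 9.73, 9.46 and 9.83 in fed and 8.41, 8.42, 8.05, 8.63 and 9.01 in fasted Mcl1KO livers. In Mcl1KO livers fed and fasted signals did not overlap for either gene, and in WT livers they overlapped for both. Cyp2a5 fell by 0.83 (SE 0.13, adjusted p = 5.33e-05) and Cyp2a4 fell by 1.06 (SE 0.18, adjusted p = 0.000145) in Mcl1KO livers. In WT the differences were -0.24 (adjusted p = 0.361) and -0.45 (adjusted p = 0.157). The upstream 250 bases of these genes are 97.6% identical and their transcripts are close copies, so their signals may not be separate. The other Cyp2a genes, Cyp2a12 and Cyp2a22, were not called.

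Cyp3a11, the main Cyp3a of adult mouse liver and a target of PXR, passed the test in no comparison. It gave 11.45, 11.58, 11.49, 11.52 and 11.53 in fed and 11.42, 11.50, 11.50, 11.59 and 11.43 in fasted WT livers, and 11.37, 11.57, 11.55, 11.49 and 11.47 in fed and 11.30, 11.21, 11.44, 11.65 and 11.60 in fasted Mcl1KO livers. All 20 values lay between 11.21 and 11.65 and the groups overlapped. The fasting difference was -0.03 in WT (95% interval -0.22 to 0.16) and -0.05 in Mcl1KO livers (95% interval -0.24 to 0.14). The signals are near the top of the scale, whose highest value was 12.56, where differences can be compressed.

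Cyp3a13, expressed in liver and intestine, rose in both genotypes. It gave 8.52, 8.84, 8.71, 8.92 and 9.05 in fed and 9.25, 9.87, 9.42, 9.93 and 9.89 in fasted WT livers, and 8.96, 8.70, 8.46, 8.997 and 8.62 in fed and 9.72, 9.56, 9.47, 9.34 and 9.49 in fasted Mcl1KO livers. All fasted livers were above all fed livers of their genotype. The rise was 0.86 in WT (SE 0.14, 1.82-fold, adjusted p = 0.000257) and 0.77 in Mcl1KO livers (SE 0.14, 1.70-fold, adjusted p = 0.000413).

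Cyp3a25 and Cyp3a59 were called once each. Cyp3a25 gave 9.81, 10.003, 9.94, 10.12 and 9.97 in fed and 10.37, 10.52, 10.39, 10.32 and 10.26 in fasted WT livers, and 9.61, 9.80, 10.03, 10.10 and 10.03 in fed and 10.22, 9.90, 10.40, 10.15 and 10.44 in fasted Mcl1KO livers. It rose by 0.40 in WT (SE 0.11, adjusted p = 0.031) without overlap, and the difference in Mcl1KO livers was 0.31 (SE 0.11, adjusted p = 0.0769). Cyp3a59 gave 7.19, 7.65, 7.45, 7.79 and 7.70 in fed and 8.05, 8.17, 8.06, 7.83 and 7.96 in fasted WT livers, and 7.29, 7.53, 7.42, 7.74 and 7.33 in fed and 7.86, 7.35, 8.05, 8.40 and 8.02 in fasted Mcl1KO livers. Its differences were 0.46 in WT (SE 0.15, adjusted p = 0.0726) and 0.47 in Mcl1KO livers (SE 0.15, adjusted p = 0.035), and the latter passed. Fed and fasted livers did not overlap for Cyp3a59 in WT and overlapped in Mcl1KO livers. Both calls were lost in 7 alternatives each, with adjusted p up to 0.0872 and 0.115. In some alternatives each was called in the other genotype as well. The adjusted p reached down to 0.0221 for Cyp3a25 in Mcl1KO and 0.0334 for Cyp3a59 in WT livers. Of 14 measured genes listed as inducible through CAR or PXR, Cyp3a41a included, 2 rose and 1 fell in WT, and 2 rose and 4 fell in Mcl1KO livers.

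**Figure D3:**
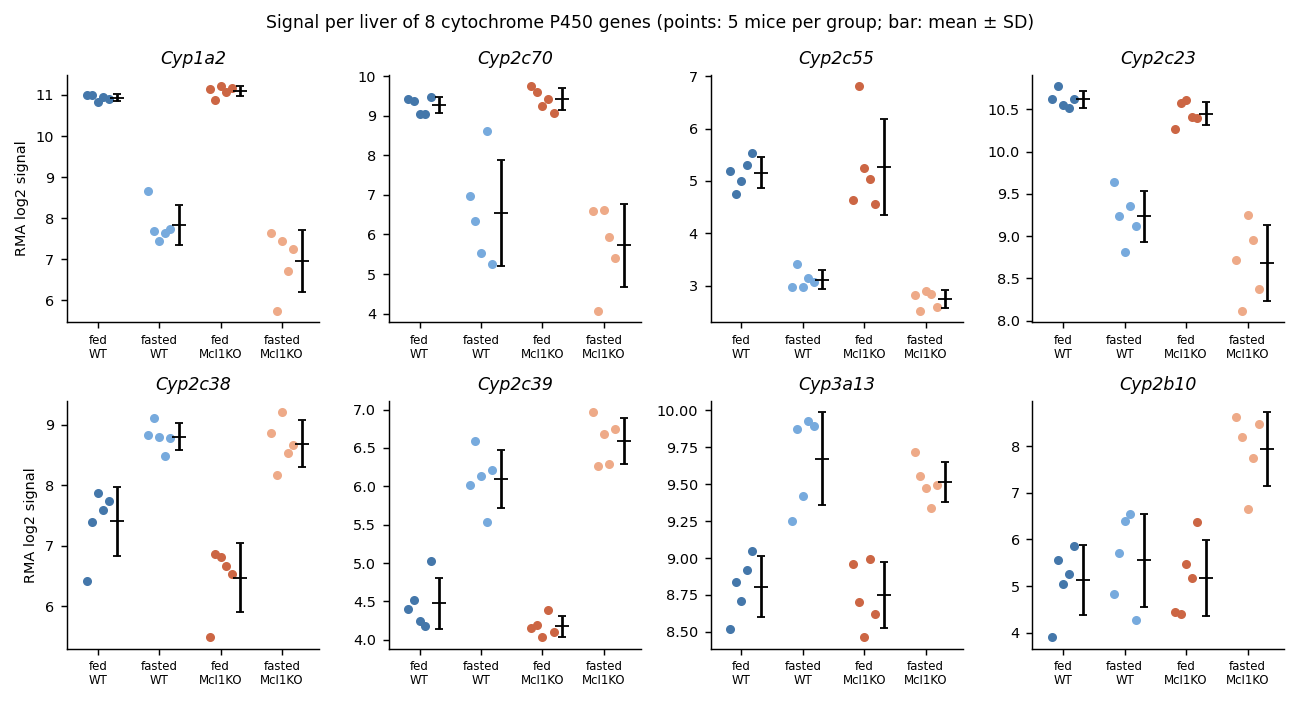
Log2 signal of 8 cytochrome genes in each of the 20 livers, 5 per group, with the group mean and SD as bars and a separate vertical axis for each gene. Fasted livers lie below fed livers for Cyp1a2, Cyp2c70, Cyp2c55 and Cyp2c23 and above them for Cyp2c38, Cyp2c39 and Cyp3a13, and the 5 fasted Mcl1KO livers lie above the rest for Cyp2b10, at 6.66 to 8.63.

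Cyp2r1 and Cyp2j5, which act on endogenous substrates, fell in both genotypes. Cyp2r1, the vitamin D side-chain hydroxylase of liver, gave 6.30, 6.02, 6.29, 6.11 and 6.03 in fed and 4.93, 5.26, 5.53, 4.999 and 5.73 in fasted WT livers, and 6.10, 6.08, 6.06, 6.14 and 6.18 in fed and 4.85, 4.56, 5.27, 5.39 and 4.52 in fasted Mcl1KO livers. Fed and fasted livers did not overlap in either genotype. Cyp2r1 fell by 0.86 in WT (SE 0.16, 1.81-fold, adjusted p = 0.00122) and by 1.20 in Mcl1KO livers (SE 0.16, 2.29-fold, adjusted p = 1.1e-05). Cyp2u1, a hydroxylase of long-chain fatty acids, gave 8.38, 7.63, 7.50, 7.70 and 7.35 in fed and 7.46, 7.42, 7.24, 7.11 and 7.03 in fasted WT livers, and 7.94, 7.72, 7.97, 7.81 and 7.69 in fed and 6.59, 6.68, 6.95, 6.89 and 7.08 in fasted Mcl1KO livers. Its groups overlapped in WT and not in Mcl1KO livers, where it fell by 0.99 (SE 0.15, adjusted p = 4.6e-05), against -0.46 in WT (SE 0.15, adjusted p = 0.0675).

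Cyp2j5, an arachidonic acid epoxygenase, gave 10.58, 10.62, 10.62, 10.59 and 10.63 in fed and 10.31, 10.40, 10.08, 10.11 and 10.33 in fasted WT livers, and 10.39, 10.30, 10.39, 10.57 and 10.48 in fed and 10.10, 9.72, 10.25, 9.98 and 9.92 in fasted Mcl1KO livers. It fell by 0.36 in WT (SE 0.10, adjusted p = 0.0281) and by 0.44 in Mcl1KO livers (SE 0.10, adjusted p = 0.00348), with no overlap in either, and the WT call was lost in 7 alternatives (adjusted p up to 0.0889). Of 10 arachidonic acid epoxygenases listed and measured, 2 rose and 2 fell in WT, and 2 rose and 3 fell in Mcl1KO livers. These counts leave out Cyp2c23, which the list holds under its synonym Cyp2c44 and which fell in both genotypes. Cyp2g1, an enzyme of olfactory tissue, fell by 1.09 (SE 0.15, adjusted p = 2.95e-05) and by 0.95 (SE 0.15, adjusted p = 6.51e-05) from a dim signal of 3.50, 3.04, 3.66, 3.99 and 3.66 in fed WT and 3.08, 3.17, 3.34, 3.34 and 3.51 in fed Mcl1KO livers, to 2.59, 2.64, 2.35, 2.28 and 2.52 and 2.15, 2.42, 2.49, 1.97 and 2.65 in the fasted livers. Of the 17 genes below the median probe set, Cyp2g1 was the 1 called in WT, and 4 were called lower and 1 higher in Mcl1KO livers: besides Cyp2g1 and Cyp2b19, these were Cyp2c65, Cyp2c66 and Cyp2j13, with differences of -0.40, -0.33 and -0.37, whose groups overlapped and whose calls were lost in 13, 6 and 3 alternatives (adjusted p up to 0.136, 0.098 and 0.0633).

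The pericentral enzyme Cyp2e1, which oxidises ethanol, acetone and acetaminophen, also passed in no comparison. It gave 11.87, 11.98, 12.01, 11.93 and 12.05 in fed and 12.17, 12.12, 12.07, 11.91 and 12.01 in fasted WT livers, and 11.94, 11.68, 12.06, 12.17 and 12.12 in fed and 12.03, 11.83, 11.99, 11.77 and 11.94 in fasted Mcl1KO livers. Its groups overlapped and its fasting differences were 0.09 (95% interval -0.12 to 0.29) in WT and -0.08 (95% interval -0.29 to 0.12) in Mcl1KO livers, again close to the top of the scale. Cyp2f2, which activates naphthalene and marks periportal hepatocytes, gave 11.11, 10.80, 10.48, 10.75 and 10.56 in fed and 10.32, 10.65, 10.58, 10.56 and 10.48 in fasted WT livers, and 10.53, 10.69, 10.54, 10.36 and 10.28 in fed and 10.08, 9.17, 9.85, 10.11 and 9.94 in fasted Mcl1KO livers. Fed and fasted livers overlapped in WT and not in Mcl1KO livers, where fasted replicate 2 was the lowest of all. Cyp2f2 fell by 0.65 in Mcl1KO livers (SE 0.15, adjusted p = 0.00355), against -0.22 in WT (SE 0.15, adjusted p = 0.503).

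The Cyp2d subfamily held 8 measured genes, and 1 was called for fasting in each genotype. A count of 1 in 8 is near the share of all probe sets, 6.79% in WT and 14.4% in Mcl1KO livers. Cyp2d9, a testosterone hydroxylase higher in males, gave 10.82, 10.72, 10.64, 10.69 and 10.87 in fed and 11.09, 11.18, 11.15, 10.51 and 11.09 in fasted WT livers, and 10.77, 10.58, 11.07, 11.06 and 11.07 in fed and 11.35, 11.00, 11.08, 10.63 and 11.43 in fasted Mcl1KO livers. Its groups overlapped, fasted WT replicate 4 was the lowest liver, and the differences of 0.26 in WT and 0.19 in Mcl1KO livers did not pass (adjusted p = 0.399 and 0.505). Cyp2d22 gave 9.43, 9.23, 9.27, 9.28 and 9.41 in fed and 9.78, 9.84, 9.91, 9.76 and 9.49 in fasted WT livers, and 9.11, 9.13, 9.27, 9.47 and 9.42 in fed and 9.47, 9.22, 9.62, 9.20 and 9.39 in fasted Mcl1KO livers, and rose by 0.44 in WT (SE 0.11, adjusted p = 0.0125) without overlap, against 0.10 in Mcl1KO livers (adjusted p = 0.667). Cyp2d40 gave 8.75, 9.09, 8.75, 8.82 and 8.84 in fed and 8.58, 8.79, 8.71, 8.66 and 8.72 in fasted WT livers, and 9.01, 8.57, 8.85, 9.03 and 8.94 in fed and 8.24, 8.20, 8.50, 8.45 and 8.21 in fasted Mcl1KO livers. It fell by 0.56 in Mcl1KO livers (SE 0.10, adjusted p = 0.000475) without overlap, against -0.16 in WT (adjusted p = 0.484). The Cyp2d genes are related in sequence, so their probe sets may read one another, which was not examined.

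The remaining genes are given by subfamily. The 5 Cyp2b genes, 2 of them above the median probe set, differed with fasting by -0.37 (Cyp2b9) to 0.43 (Cyp2b10) in WT. The 7 Cyp2j genes, 3 above the median, ran from -0.36 (Cyp2j5) to 0.07 (Cyp2j8) in WT and from -0.44 (Cyp2j5) to 0.07 (Cyp2j11) in Mcl1KO livers. The 7 Cyp3a genes, 6 above the median, ran from -0.12 (Cyp3a16) to 0.86 (Cyp3a13) in WT and from -0.05 (Cyp3a11) to 0.77 (Cyp3a13) in Mcl1KO livers, and the 8 Cyp2d genes, 7 above the median, from -0.16 (Cyp2d40) to 0.44 (Cyp2d22) and from -0.56 (Cyp2d40) to 0.24 (Cyp2d12). Cyp2s1, Cyp2t4 and Cyp2w1, all below the median, differed by 0.13, -0.19 and -0.03 in WT. In Mcl1KO livers they differed by -0.15, -0.14 and -0.16, with 0 called by limma. Over all 56 genes, 22 in WT (39.3%, against 17.3% of all probe sets) and 28 in Mcl1KO livers (50%, against 24.2%) had an unadjusted p under 0.05 for fasting.

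In fed livers no cytochrome of these families passed the test between the genotypes. Of the 56 genes, 0 were called between fed Mcl1KO and fed WT livers (limma), against 0.036% of all probe sets. At an unadjusted p under 0.05 there were 2 (3.57%, against 6.44% of all probe sets), both lower in Mcl1KO: Cyp2c38 (-0.93, SE 0.25, adjusted p = 0.334) and Cyp2c68 (-0.30, SE 0.13, adjusted p = 0.727). Without fed WT replicate 1, whose Cyp2c38 signal was 6.42 against 7.40 to 7.87 for the rest of that group, Cyp2c38 was called, at -1.17 (adjusted p = 0.0499). Over all probe sets 15 were called without that liver, against 8 with it. Fed Mcl1KO replicate 1 was also low for Cyp2c38, at 5.49 against 6.54 to 6.86 for the rest of its group. Without that Mcl1KO liver 0 of the 56 genes were called. For 36 of the 56 genes the 95% interval of the difference lay within 0.5 log2 units of 0. Of these 36, 21 were among the 39 genes at or above the median probe set, and the rest were dim. The fed groups did not overlap for 1 gene, Cyp2j5 (-0.18, adjusted p = 0.861), against 1.57% of all probe sets. A threshold missed does not show that the groups are alike.

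In fasted livers 5 of the 56 genes differed between the genotypes (8.93%, against 4.99% of all probe sets). Cyp2b10 was higher in fasted Mcl1KO livers, and Cyp1a2, Cyp2f2, Cyp2d22 and Cyp2d40 were lower. At an unadjusted p under 0.05, 15 genes differed (26.8%, against 18.3% of all probe sets), 2 higher and 13 lower, and the median log2 difference over the 56 genes was -0.12, against -0.02 over all probe sets. Groups did not overlap for 4 genes, Cyp2b10, Cyp2c55, Cyp2d40 and Cyp2f2, against 3.90% of all probe sets. This comparison uses the same fasted arrays as the fasting comparisons.

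Cyp2b10, at 8.63, 8.18, 6.66, 7.74 and 8.48 in fasted Mcl1KO against 4.83, 5.71, 6.40, 6.55 and 4.27 in fasted WT livers, was higher by 2.38 (SE 0.45, 5.22-fold, adjusted p = 0.00384) and remained called in every alternative tried. Cyp2f2 differed by -0.69 (SE 0.15, 1.61-fold, adjusted p = 0.00978) and also remained called throughout. Both sets of groups were apart, with Cyp2f2 at 9.17 to 10.11 in fasted Mcl1KO and 10.32 to 10.65 in fasted WT livers. The remaining calls depended on single livers or on the fit. Cyp1a2 differed by -0.88 (SE 0.25, 1.84-fold, adjusted p = 0.0423) with overlapping groups, by -0.58 without fasted Mcl1KO replicate 2 (adjusted p = 0.112) and by -0.67 without fasted WT replicate 1 (adjusted p = 0.123). Over its 10 alternatives without a call the adjusted p reached 0.169. Cyp2d22, lower at -0.38 (SE 0.11, adjusted p = 0.0415), and Cyp2d40, lower at -0.37 (SE 0.10, adjusted p = 0.0403), each lost the call in 13 alternatives, with adjusted p up to 0.125 and 0.108. With each array centred on its median, 2 genes remained called, 1 higher and 1 lower. Without fasted Mcl1KO replicate 3, 8 were called, with Cyp2c23, Cyp2c50 and Cyp2c54 lower as well. The count was 2 without fasted WT replicate 1, without fasted WT replicate 4, without fasted Mcl1KO replicate 2 and without fasted Mcl1KO replicate 5. It was 3 without fasted WT replicate 2, without fasted WT replicate 5 and without fasted Mcl1KO replicate 1. Over all probe sets 1152 were called with each array centred on its median, against 1109 as reported. Without fasted Mcl1KO replicate 3 that number was 1707, and the other single omissions gave 497 to 1050.

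Spread between livers was largest in the fasted Mcl1KO group. That group had the largest SD for 24 of the 56 genes, and for 34.4% of all probe sets. The median SD of the 39 brighter genes was 0.25 there, against 0.17 in fed WT, 0.21 in fasted WT and 0.20 in fed Mcl1KO livers. Over all 11103 probe sets at or above the median it was 0.24 there, against 0.19, 0.22 and 0.20. The larger spread was therefore not particular to these genes. Of the 24 genes called for fasting in Mcl1KO livers, replicate 3 was the fasted liver nearest to the fed mean for 10, and replicate 2 was the farthest from it for 8. The Kupffer cell markers, at the levels given above, were higher in fasted Mcl1KO than in fasted WT livers for 5 of 12, among them Vsig4 by 1.22 (adjusted p = 0.000146), and their part in the cytochrome differences was not tested.

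Whether fasting acted differently in the 2 genotypes was tested by the interaction, the fasting difference in Mcl1KO minus that in WT. By limma 0 of the 56 genes were called, against 0.135% of all probe sets, and 11 had an unadjusted p under 0.05 (19.6%, against 11.2% of all probe sets). Of these, Cyp2b10, Cyp2b19, Cyp2c38 and Cyp2c39 were positive and Cyp1a2, Cyp2a4, Cyp2a5, Cyp2d22, Cyp2d26, Cyp2d40 and Cyp2u1 negative. The largest was Cyp2b10, at 2.34 (SE 0.64, adjusted p = 0.123), with adjusted p up to 0.222 over its alternatives. It was called without fasted Mcl1KO replicate 3, at 2.66 (adjusted p = 0.028). Over all probe sets 331 interactions were called without that liver, against 30 with it. Cyp1a2 came to -1.04 (SE 0.35, adjusted p = 0.235), Cyp2c70 to -0.97 (SE 0.66, adjusted p = 0.616) and Cyp2a5 to -0.60 (SE 0.18, adjusted p = 0.176). Cyp2c38 and Cyp2c39 came to 0.82 (SE 0.36, adjusted p = 0.383) and 0.79 (SE 0.25, adjusted p = 0.191). For 8 of the 12 genes called for fasting in both genotypes the difference was larger in Mcl1KO livers, and for none of the 12 was that interaction called.

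**Figure D4:**
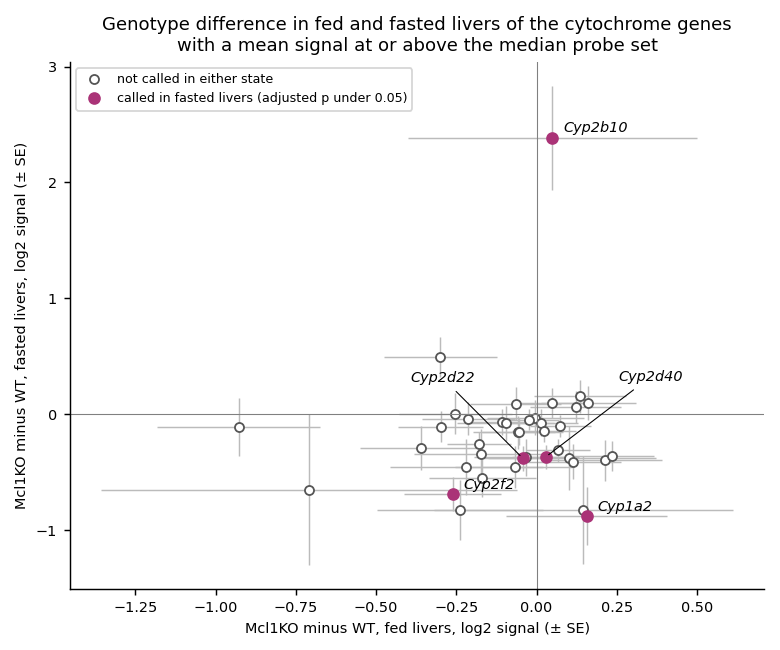
Mcl1KO minus WT log2 signal in fed livers (horizontal) and in fasted livers (vertical), each with the standard error of the model, for the 39 cytochrome genes at or above the median probe set, with filled points for genes called in fasted livers. Cyp2b10 lies at 0.05 in fed and 2.38 in fasted livers, and Cyp1a2, Cyp2f2, Cyp2d22 and Cyp2d40 lie below 0 in fasted livers.

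Of 11 measured receptors and partners, 0 were called for fasting in WT and 3 rose and 2 fell in Mcl1KO livers. Nr1i3, which encodes CAR, differed by 0.29 in WT (adjusted p = 0.599), by -0.10 in Mcl1KO (adjusted p = 0.878) and by -0.48 between fasted genotypes (adjusted p = 0.265). Nr1i2, which encodes PXR, differed by 0.25 (adjusted p = 0.459) and 0.24 (adjusted p = 0.389) with fasting. In Mcl1KO livers the corepressor Nr0b2 fell by 1.56 (adjusted p = 0.000281), while Rxrb, Ncoa1 and Hnf4a rose by 0.80, 0.51 and 0.48 (adjusted p = 0.00811, 0.0277 and 0.0122).

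Of 13 measured genes listed for electron transfer or heme metabolism, 2 fell in WT and 5 in Mcl1KO livers, with 0 higher in either. Por, the reductase, has no probe set under that symbol here. Cyb5b, an outer mitochondrial cytochrome b5, fell by 1.29 in WT (adjusted p = 0.000125) and by 1.86 in Mcl1KO livers (adjusted p = 3.71e-07). Cyb5r3, a cytochrome b5 reductase, fell by 0.69 (adjusted p = 0.00274) and by 1.39 (adjusted p = 2.14e-07). In Mcl1KO livers Alad, of heme synthesis, fell by 1.15 (adjusted p = 1.23e-06). Alas1, the rate-limiting enzyme of heme synthesis and itself a CAR target, differed in WT by 0.12 and in Mcl1KO livers by -0.28 (adjusted p = 0.709 and 0.143). Between fasted genotypes 3 of the 13 were lower and 1 higher, the heme-degrading enzyme Hmox1, by 1.20 (adjusted p = 0.0186).

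Other genes of drug metabolism divided in both directions. Of 18 measured CAR and PXR targets outside the families, 3 rose and 6 fell in WT, and 3 rose and 9 fell in Mcl1KO livers. The largest rise in both genotypes was that of the organic anion transporter Slco1a4, by 1.73 (adjusted p = 1.85e-05) and 2.28 (adjusted p = 1.5e-07), and the largest fall that of the glutathione transferase Gstm3, at -2.27 (adjusted p = 1.5e-05) and -2.50 (adjusted p = 1.69e-06). Between fasted genotypes 0 were higher and 2 lower, Gstt1 at -0.98 (adjusted p = 0.000964) and Ces2a at -0.81 (adjusted p = 0.0213). Of 10 measured glucuronosyltransferases, 7 fell and 0 rose in each genotype, Ugt2b1 most, at -1.76 (adjusted p = 3.33e-05) and -2.79 (adjusted p = 2.24e-08).

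Genes with a sex difference in mouse liver were counted outside the families as well. Of 12 measured male-biased genes 6 fell in WT and 8 in Mcl1KO livers with 0 higher, led by the hydroxysteroid dehydrogenase Hsd3b5 at -5.56 (adjusted p = 6.6e-16) and -5.64 (adjusted p = 4.86e-16). Of 13 female-biased genes 4 rose in WT and 5 in Mcl1KO livers with 0 lower, led by the steroid hydroxylase Cyp17a1 at 3.64 (adjusted p = 2.4e-05) and 4.51 (adjusted p = 5.44e-07). Of the 9 female-biased Cyp2 and Cyp3 genes, Cyp3a41a and Cyp3a41b included, 0 rose, 1 fell in WT and 2 fell in Mcl1KO livers. Counts this small are near the share called over all probe sets, 6.79% in WT and 14.4% in Mcl1KO livers. Cyp2b13 and Cyp3a16 of this list lay below the median probe set. The contrast with the genes outside the families was not tested.

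By hepatocyte zone, 3 of 12 measured pericentral genes fell in WT and 5 in Mcl1KO livers with 0 higher, led by Rgn, of vitamin C synthesis, at -2.03 (adjusted p = 0.000256) and -2.83 (adjusted p = 1.69e-06). Of 12 periportal genes 7 rose in WT and 6 in Mcl1KO livers with 0 lower, led by Apoa4, an apolipoprotein, at 2.996 (adjusted p = 2.11e-07) and 3.14 (adjusted p = 4.41e-08). Among the cytochromes described above, pericentral Cyp1a2 fell in both genotypes, pericentral Cyp2e1 was not called, and periportal Cyp2f2 fell in Mcl1KO livers. Under the 2 other scalings no called gene of these lists or of the marker lists changed sign. In each direction, higher or lower, no list's count moved by more than 1 gene.

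Cytochromes of families 4 and above, of which 38 were measured, work mainly on fatty acids, steroids and bile acids. For fasting in WT 7 of the 38 were higher and 2 lower (23.7% called), and in Mcl1KO livers 8 were higher and 5 lower (34.2% called). Families 1 to 3 had 5 higher and 9 lower in WT and 6 higher and 18 lower in Mcl1KO livers. Medians of the fasting difference were 0.06 and 0.06 for families 4 and above, against -0.04 and -0.12 for families 1 to 3. This contrast between families was not tested.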

How the data were processed

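Liver RNA was extracted with Trizol and labelled with the GeneChip WT PLUS kit for Affymetrix arrays, per the labels' protocols. The deposited value table holds log2 signals that the authors made with RMA in Partek 7.0, per the submitters' processing notes; the base of the log is not stated and was taken as 2 from the range of the values. RMA forces the arrays onto 1 distribution, which hides any change in total signal. Array medians lay between 3.35 and 3.47, and 0 pairs of arrays were identical. Probe sets were named from the platform annotation: 19572 of 22206 had 1 symbol, 0 had several and 2634 had none.

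From these values, limma 3.58.1 in R 4.3.3 was fitted to all 20 arrays with 1 mean per group, and p-values were adjusted by Benjamini-Hochberg over 22206 probe sets and called at 0.05. SE is the moderated model's. The fit was checked on simulated data. Every gene of the rule could be named. Signals per liver are given for the 10 largest called rises and falls of each comparison and for a short list of well-known genes, and up to 3 genes per direction outside the families. The members and lists were chosen with earlier results of these data known. Alternatives changed the scaling, the moderation of the spread, the weights, the filter on dim probe sets, the groups in the fit, the replicate block and the livers kept. Promoter bases come from RefSeq (GRCm38.p6), which matched 48 of the 56 genes. Sequences of the probes were not used here. The number of arrays limits the precision.

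Replicate numbers are shared between groups in the labels. Livers with the same number mostly did not deviate together. Over 30 such pairs the correlation of their deviations was between -0.19 and 0.166. The 1 pair over 0.1 was fed WT replicate 1 with fed Mcl1KO replicate 1, at 0.166. For 3 of the 30 pairs the liver with the same number was the best match in the other group. The numbers were therefore not taken as pairs, and counts with a replicate block are given below.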

Additional observations from a re-analysis of the deposited data

Results flagged for a closer look

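In 16 of the 224 sets of 5 livers examined (56 genes in 4 groups) 1 liver stood far from the other 4 by Dixon's test, with a gap over the range above 0.71. That is 7.14%, against 5.53% over all probe sets, and chance gives about 1 in 20. Of the 16, 14 concern genes at or above the median probe set. Fasted WT replicate 4 was the low liver for 5 genes: Cyp2d9 at 10.51 (others 11.09 to 11.18), Cyp2d13 at 10.16 (others 10.63 to 10.72), Cyp2d12 at 8.64 (others 9.02 to 9.07), Cyp2c50 at 9.69 (others 10.13 to 10.27) and Cyp3a57 at 4.89 (others 5.71 to 5.98). It was also the fasted WT liver with the highest Cyp2c70 signal. The Cyp2d genes are related in sequence and their probe sets may read one another, which was not examined. The low values of Cyp2d9, Cyp2d13 and Cyp2d12 in this liver may therefore not be independent.

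Among fasted WT livers, replicate 1 gave 8.67 for Cyp1a2 (others 7.45 to 7.73) and replicate 2 gave 11.29 for Cyp2d26 (others 11.04 to 11.07). Among fasted Mcl1KO livers, replicate 2 gave 9.17 for Cyp2f2 (others 9.85 to 10.11) and 2.18 for Cyp2s1 (others 2.55 to 2.59), and replicate 3 gave 7.12 for Cyp2b9 (others 3.88 to 4.69).

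Among fed Mcl1KO livers, replicate 1 gave 5.49 for Cyp2c38 (others 6.54 to 6.86) and replicate 2 gave 8.62 for Cyp2c37 (others 9.88 to 10.06). Among fed WT livers, replicate 1 gave 9.02 for Cyp2c67 (others 9.31 to 9.43) and 2.83 for Cyp2d34 (others 3.28 to 3.43). Replicate 2 gave 9.09 for Cyp2d40 (others 8.75 to 8.84), and replicate 5 gave 6.03 for Cyp2c40 (others 5.03 to 5.32).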

How the results depend on the processing

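The fasting counts stayed within 1.5 times of the reported 14 in WT and 24 in Mcl1KO livers, at 12 to 17 and 19 to 25 over all alternatives. Over all probe sets the calls were 1124 to 1733 in WT and 2689 to 3418 in Mcl1KO livers, against 1507 and 3208 as reported. Under the replicate block they were 13 and 22, and it left 3 genes between fasted genotypes and 0 in the other comparisons. The count between fasted genotypes, 5 as reported, was 2 with each array centred on its median, 2 with the compared groups only, 3 with 1 variance weight per group, 3 with 1 weight per array and 8 with only probe sets at or above the median mean, where fewer probe sets are tested. Leaving out 1 liver gave 2 to 8 genes there, 0 to 1 between fed genotypes (1 without fed WT replicate 1) and 0 to 1 for the interaction (1 without fasted Mcl1KO replicate 3). Calls over all probe sets moved as well. Between fasted genotypes they were 1109 as reported, 1152 with median centring and 399 with the compared groups only. With 1 liver left out they were 497 to 1707, the most without fasted Mcl1KO replicate 3. For the interaction they were 30 as reported and 331 without that liver. Between fed genotypes they were 8 as reported and 15 without fed WT replicate 1. The causes of these moves were not tested. Of the 43 called differences of single genes followed, 33 kept their call in every alternative run, 10 lost it in some, and 0 changed sign. No symbol of the rule has several probe sets, so the choice of probe set changed nothing. The 17 genes below the median probe set and genes near the top of the scale, such as Cyp2e1, are limited by signal.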
